A study of Homo sapiens with 24 samples.

Results

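The genes described here encode the replicative DNA polymerases and primase, the enzymes that copy the genome during S phase. They are POLA1, POLA2, PRIM1 and PRIM2, which make up DNA polymerase alpha-primase, POLD1, POLD2 and POLD3 of DNA polymerase delta, and POLE and POLE2 of DNA polymerase epsilon. Members were the array probes whose RefSeq accession belongs to 1 of these 9 genes. On the 24 h array 12 of 50599 probes matched and covered 9 genes, and on the 48 h array 11 of 58201 probes matched and covered 8 genes. POLA2 was the gene without a matched probe at 48 h, because its probe is listed there under an Ensembl transcript. The samples were cultures of LNCaP, an established androgen-dependent prostate cancer cell line, transfected with an siRNA against the long non-coding RNA TAPIR-1 (si-A1), an siRNA against the long non-coding RNA TAPIR-2 (si-A2), or a scrambled siRNA (si-SCRL). RNA was taken at 24 h or at 48 h from 4 biological replicates per siRNA and time, which gave 24 one-colour Agilent arrays, 1 per sample. All groups shared the cell line and the electroporation, and each transcript was targeted by 1 siRNA, so effects of the target and of the siRNA cannot be told apart. Replicate 2 of si-A2 at 48 h, a dim array, was left out, which left 23 arrays.

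At a replication fork, DNA polymerase alpha-primase starts every new strand. Its primase lays down a short RNA primer and its polymerase subunit extends that primer with DNA. Polymerase epsilon then takes over on the leading strand and polymerase delta on the lagging strand, where it finishes each Okazaki fragment. Many genes for replication proteins are transcribed in a cell cycle dependent way under E2F factors, rising as cells leave G1, and are held down in arrested cells by repressor complexes that act through E2F and CHR promoter elements. The comparison therefore shows how the transcripts of the copying enzymes themselves stood after each knockdown.

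The polymerase alpha-primase genes lie on 4 chromosomes of the GRCh38.p14 assembly. POLA1, the catalytic polymerase subunit, is at chrX:24693918-24996986. POLA2, its regulatory B subunit, is at chr11:65261962-65305985. PRIM1, the catalytic primase subunit, is at chr12:56731580-56752323, and PRIM2, the large primase subunit, is at chr6:57221540-57646850. The polymerase delta genes are POLD1, the catalytic subunit, at chr19:50384323-50418018, POLD2 at chr7:44114680-44124325 and POLD3 at chr11:74592582-74669341. POLE, the catalytic subunit of polymerase epsilon, is at chr12:132623762-132687342, and its partner POLE2 is at chr14:49643555-49688214. RefSeq also lists a pseudogene of PRIM2, PRIM2BP, on chromosome 6 and one of POLD2, POLD2P1, on chromosome 5, so RNA of these copies, if made, could reach the probes of PRIM2 and POLD2.

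The promoters shown are those of the 4 members called lower after si-A1 at 24 h in the results that follow. PRIM2 and POLD3 also read below all controls at 24 h. The promoter entries of PRIM2, which held no match, are not shown. Each line is the 250 bases before a RefSeq transcription start, 5′ to 3′ on the gene's own strand. Capitals mark matches to an E2F-type word (TTTCCCGC, TTTCGCGC, TTTGCCGC or TTTGGCGC), to a CHR word (TTTGAA or TTCGAA) or to CCAAT, on either strand.
POLA1 promoter (chrX:24693668-24693917, plus strand): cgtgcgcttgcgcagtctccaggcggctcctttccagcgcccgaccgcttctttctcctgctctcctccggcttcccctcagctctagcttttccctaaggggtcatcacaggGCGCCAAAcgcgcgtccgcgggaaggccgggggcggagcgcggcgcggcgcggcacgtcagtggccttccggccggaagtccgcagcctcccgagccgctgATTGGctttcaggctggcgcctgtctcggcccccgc
POLA2 promoter (chr11:65261712-65261961, plus strand): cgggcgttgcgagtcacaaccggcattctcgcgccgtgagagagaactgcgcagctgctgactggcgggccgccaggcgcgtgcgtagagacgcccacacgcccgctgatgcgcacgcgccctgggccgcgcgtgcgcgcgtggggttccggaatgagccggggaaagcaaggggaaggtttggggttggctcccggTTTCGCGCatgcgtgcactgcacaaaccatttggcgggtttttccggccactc
PRIM1 promoter (chr12:56752324-56752573, minus strand): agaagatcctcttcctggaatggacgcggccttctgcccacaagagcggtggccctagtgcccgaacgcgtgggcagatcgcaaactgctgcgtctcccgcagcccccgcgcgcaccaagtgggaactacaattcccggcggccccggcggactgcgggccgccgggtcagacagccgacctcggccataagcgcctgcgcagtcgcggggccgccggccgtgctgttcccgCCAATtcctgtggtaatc
POLE2 promoter (chr14:49688215-49688464, minus strand): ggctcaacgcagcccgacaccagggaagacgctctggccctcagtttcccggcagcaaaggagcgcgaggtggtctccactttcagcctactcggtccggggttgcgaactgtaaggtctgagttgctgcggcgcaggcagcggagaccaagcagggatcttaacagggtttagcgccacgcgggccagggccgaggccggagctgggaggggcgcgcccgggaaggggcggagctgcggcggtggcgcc

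The E2F-type word of POLA1 starts 137 bases before the start and reads in reverse, and that of POLA2 starts 53 bases before it. Among the 10 promoter entries of 8 members, 3 held an E2F-type word, those of POLA1, POLA2 and POLE, against 2.79% of all 35116 promoters. No entry held a CHR word, against 14.3% of all promoters, and 4 held CCAAT, against 32.0%. POLE carried CCAAT on both strands at 1 overlapping position. The matches describe letters only, and POLD3 was not scanned.

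The arrays carried no saturated spot. The median intensity of an array, over all spots, ranged from 20.9 to 50.1 at 24 h, and from 19.2 to 30.1 on the arrays used at 48 h. Per array, 58.5% to 71.7% of spots were rated well above background. The arrays of a time lay on 2 slides that both held every siRNA, and 24 h and 48 h used different versions of the array. A probe for TAPIR-2 read 5.04 ± 0.20 (log2 intensity, SD, n = 4) with si-SCRL, 4.64 ± 0.32 with si-A1 and 4.06 ± 0.74 with si-A2 at 24 h, where the si-A2 difference of -0.98 had an adjusted p of 0.23. At 48 h the same probe had a log2 fold change of 0.23 after si-A2 (adjusted p = 0.7). A second TAPIR-2 probe, read at 48 h only, had -0.59 (adjusted p = 0.605) and was well above background on no array used. No probe for TAPIR-1 was read, so the knockdowns themselves were not shown by the probes read here. The prostate markers KLK3 and KLK2 and the luminal keratins KRT8 and KRT18 were well above background on every array used. LUM, a fibroblast marker, was above background on none, while the probes of CD79A, CD3E, PTPRC, VWF and CDH5, genes of blood and vessel cells, were well above background on every array, as was that of DCN, a fibroblast gene, at 48 h. No fibroblast, leukocyte or endothelial marker tested was called in any comparison with si-SCRL.

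At 24 h POLA2 and PRIM1 were called lower after both siRNAs, POLA1 after si-A1 only, and PRIM2 after neither. The brightest probes of all 4 genes read below every control array in every knockdown array. The share of all probes whose groups separated in this way was not counted. After si-A1, POLA2 fell to 32.4% of its control intensity, PRIM1 to 40.8% and POLA1 to 62.3%, while the shift of PRIM2, to 34.2%, was noisier and did not pass. After si-A2, POLA2 fell to 27.8% and PRIM1 to 36.6%, while POLA1, at 63.7%, and PRIM2, at 39.5%, did not pass. Values are log2 normalized intensities of the brightest probe of each gene. A gene was called where limma's p, adjusted by Benjamini-Hochberg over all probes tested, was below 0.01 and the log2 fold change was at least 0.5 in size. In a bulk sample, fewer cells that make a transcript and less RNA per cell cannot be told apart.

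POLA2 read 8.43, 9.08, 8.79 and 9.01 in the si-SCRL replicates, 7.30, 7.07, 7.32 and 7.12 with si-A1, and 7.01, 6.89, 6.70 and 7.34 with si-A2. Every knockdown array lay more than 1 log2 unit below the lowest control array. POLA2 fell by 1.63 on the log2 scale after si-A1 (SE 0.18, adjusted p = 7.6e-04) and by 1.85 after si-A2 (SE 0.18, adjusted p = 3.4e-04). POLA2 kept its call under both siRNAs when any 1 array was left out.

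PRIM1, which makes the RNA primer, was the best measured member, with 10 spots per array whose SD within an array was 0.05 to 0.38. It read 9.13, 8.80, 9.61 and 8.99 with si-SCRL, 7.92, 7.64, 7.94 and 7.88 with si-A1, and 7.74, 7.63, 7.69 and 7.66 with si-A2. The groups did not overlap, and the si-A2 replicates (SD 0.05) lay closer together than the controls (SD 0.35). PRIM1 fell by 1.29 on the log2 scale after si-A1 (SE 0.16, adjusted p = 0.00162) and by 1.45 after si-A2 (SE 0.16, adjusted p = 7.7e-04). Without si-A1 replicate 2 the si-A1 call was lost at an adjusted p of 0.0101.

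POLA1 moved less but was tight. It read 7.0, 6.81, 7.01 and 6.98 with si-SCRL, 6.40, 6.30, 6.21 and 6.15 with si-A1, and 6.25, 6.32, 6.31 and 6.32 with si-A2. Both knockdown groups lay below all control arrays and overlapped each other. The log2 fold change was -0.68 after si-A1 (SE 0.11, adjusted p = 0.00942), which was called, and -0.65 after si-A2 (SE 0.11, adjusted p = 0.0142), which was not. The si-A1 call stood at the threshold, since leaving out any 1 of the 12 arrays ended it, with log2 fold changes from -0.74 to -0.65 and adjusted p from 0.0145 to 0.0435. With normexp background correction it was -0.44, below the required size, and the call was also lost.

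PRIM2, which holds the iron-sulfur cluster of primase, read 5.74, 5.76, 6.33 and 5.57 with si-SCRL. It read 4.77, 4.42, 4.73 and 3.26 with si-A1 and 4.75, 4.34, 4.45 and 4.50 with si-A2. Both knockdown groups lay below all controls, and the lowest array, si-A1 replicate 4, was not well above background. The log2 fold changes of -1.55 (SE 0.31, adjusted p = 0.0266) and -1.34 (SE 0.31, adjusted p = 0.0638) did not pass, although the si-A2 value passed without si-A1 replicate 4 (adjusted p = 0.00497). The paper does list PRIM2 among the genes regulated by si-A1 at 24 h. Its probe filters differ from those used here, and the reason for the difference was not tested. A second, dimmer PRIM2 probe read 3.51, 4.56, 5.04 and 4.36 with si-SCRL, and 3.43, 3.14, 3.32 and 3.59 with si-A2. With si-A1, replicates 1 and 3 read 4.01 and 4.56, above the lowest control, and the other replicates lay below it. Both knockdown groups overlapped the controls there, and neither value passed (-0.54 after si-A1, adjusted p = 0.493, and at least 2.00-fold lower after si-A2, where no array was well above background, adjusted p = 0.199). The third PRIM2 probe did not rise well above background at 24 h in any sample.

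**Figure D1:**
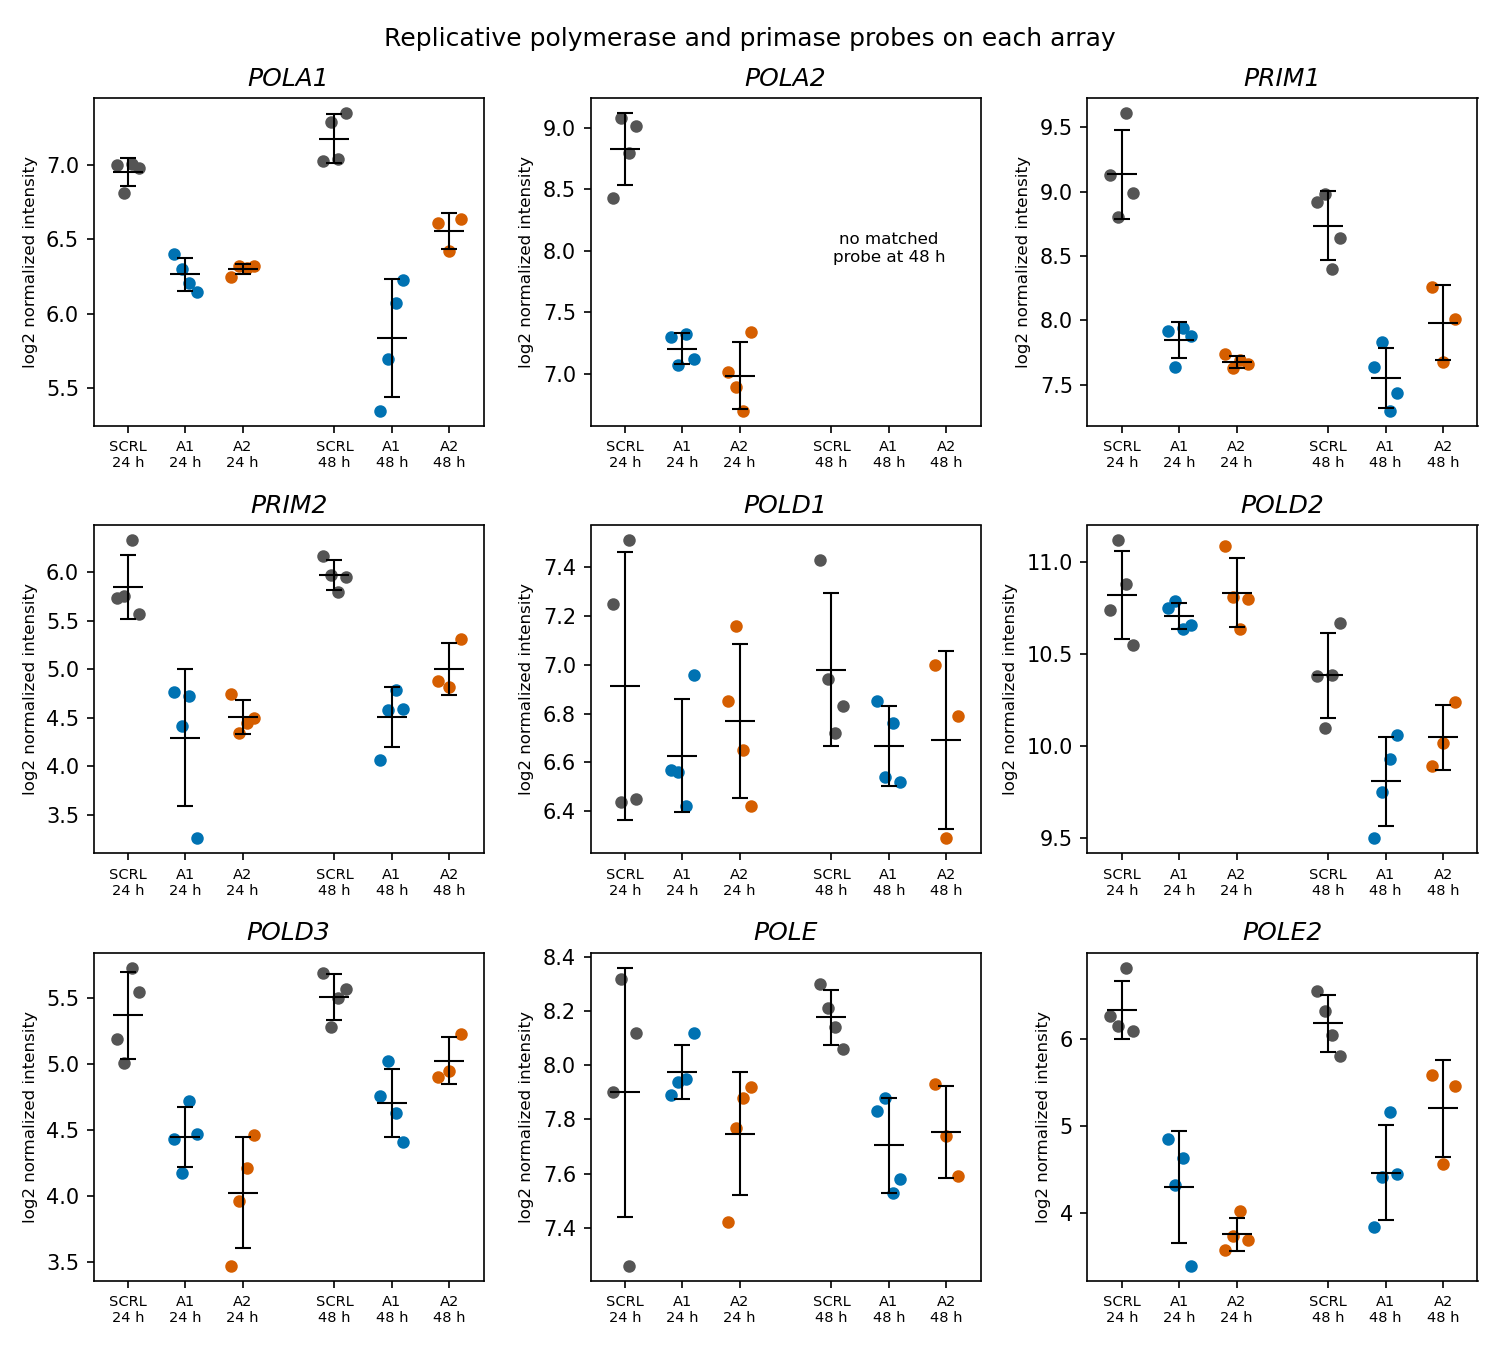
Log2 normalized intensity (vertical axis) of the brightest probe of each gene on every array, by siRNA and time; points are arrays, and the bar with whiskers is the mean ± SD over 4 arrays, or 3 for si-A2 at 48 h. At 24 h the knockdown arrays of POLA1, POLA2, PRIM1, PRIM2, POLD3 and POLE2 all lie below the control arrays, while those of POLD1, POLD2 and POLE overlap them, and POLA2 has no matched probe at 48 h.

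Within polymerase delta at 24 h, POLD3 was called lower after si-A2, and POLD1 and POLD2 were not called after either siRNA. POLD3, a subunit that helps bind the sliding clamp PCNA, was lower after both siRNAs. It read 5.19, 5.01, 5.73 and 5.55 with si-SCRL, 4.43, 4.17, 4.72 and 4.47 with si-A1, and 3.47, 3.96, 4.21 and 4.46 with si-A2. No knockdown array reached the controls, although 2 of the 4 si-A2 arrays were not well above background. The decrease was called after si-A2 (log2 fold change -1.34, SE 0.16, adjusted p = 9.8e-04). That call was lost with the slide as a random block (adjusted p = 0.0154) and with normexp background correction, where the value was -0.48. After si-A1 the value of -0.92 (SE 0.16, adjusted p = 0.0104) missed the threshold narrowly, and it passed without si-A2 replicate 1 at an adjusted p of 0.00815.

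POLD1, the catalytic subunit, ranged from 6.44 to 7.51 with si-SCRL, from 6.42 to 6.96 with si-A1 and from 6.42 to 7.16 with si-A2. The groups overlapped, and the log2 fold changes of -0.28 (95% confidence interval -0.88 to 0.31) and -0.14 (-0.74 to 0.46) were not called. POLD2, the subunit that holds catalytic and accessory subunits together, was measured more tightly, between 10.55 and 11.12 over all 12 arrays. Its log2 fold changes were -0.11 (-0.42 to 0.19) after si-A1 and 0.01 (-0.29 to 0.31) after si-A2. For POLD2 the intervals leave out a decrease of the size seen in PRIM1.

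In polymerase epsilon, POLE2 was called after both siRNAs and POLE after neither. POLE2, the noncatalytic partner of POLE, had the lowest log2 fold change of all members after both siRNAs at 24 h, a rank that depended on the background correction. It read 6.26, 6.15, 6.82 and 6.09 with si-SCRL, 4.85, 4.32, 4.63 and 3.39 with si-A1, and 3.57, 3.73, 4.02 and 3.69 with si-A2. All 8 knockdown arrays lay at least 1 log2 unit below the lowest control, and only 1 of the 4 si-A2 arrays was still well above background. The log2 fold change was -2.03 (SE 0.30, adjusted p = 0.00432) after si-A1 and -2.58 (SE 0.30, adjusted p = 9.5e-04) after si-A2. The size depended on the background correction, with -0.82 and -0.92 under normexp and -0.80 and -0.90 without correction, all still called. In both settings POLA2 and PRIM1 were lower than POLE2. Under normexp POLA2 had -1.33 after si-A1 and -1.47 after si-A2, and PRIM1 -1.08 and -1.20. The si-A2 call held without any 1 array. The si-A1 call was lost without si-A1 replicate 2 or without any 1 of the 4 si-SCRL replicates, with an adjusted p of up to 0.019 and a log2 fold change between -2.23 and -1.72 over all arrays left out in turn.

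POLE, the leading strand polymerase itself, had 2 probes that did not tell the same story at 24 h. The brighter one read 7.90, 8.32, 7.26 and 8.12 with si-SCRL, between 7.89 and 8.12 with si-A1 and between 7.42 and 7.92 with si-A2. Its groups overlapped, with log2 fold changes of 0.08 (95% confidence interval -0.41 to 0.56) and -0.15 (-0.64 to 0.33), and replicate 3 of si-SCRL was the lowest of all 12 arrays. The other probe read 8.39, 8.33, 8.05 and 8.03 with si-SCRL, between 7.65 and 7.76 with si-A1 and between 7.40 and 7.74 with si-A2, without overlap. Its log2 fold changes were -0.49 (SE 0.13, adjusted p = 0.097) and -0.57 (SE 0.13, adjusted p = 0.0586), so that neither probe passed.

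At 24 h 4 of 9 members were called lower after si-A1 (POLA1, POLA2, PRIM1 and POLE2), against 1.02% of the 44849 probes tested, and none was called higher. After si-A2 4 of 9 were called lower (POLA2, PRIM1, POLD3 and POLE2), against 0.838% of probes. Over the 9 members the median log2 fold change was -0.92 for si-A1 and -1.34 for si-A2, where the median over all probes was 0.04 in both. The members' median was -0.80 on the first slide and -1.04 on the second after si-A1, and -1.21 and -1.30 after si-A2, but with 2 arrays per group on a slide no member was called within either slide alone. With the fit restricted to the 2 groups compared, 1 member (POLA2) was called after si-A1 and 2 (POLA2 and POLE2) after si-A2. Both comparisons use the same si-SCRL arrays, so they are not independent of each other.

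**Figure D2:**
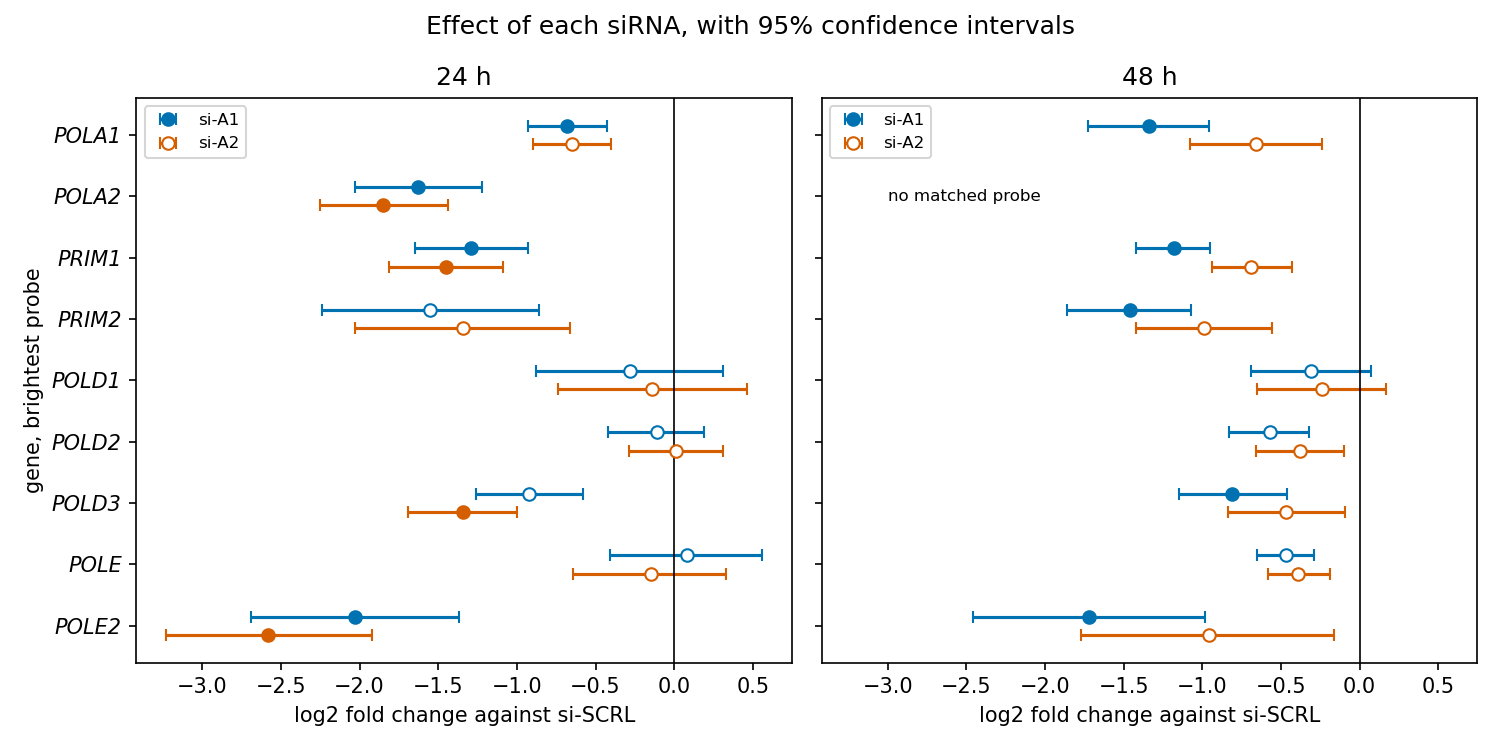
Log2 fold change against si-SCRL (horizontal axis) with its 95% confidence interval for the brightest probe of each gene at 24 h (left) and 48 h (right); filled points were called. POLE2 and POLA2 lie farthest below 0 at 24 h, POLD1, POLD2 and POLE sit near 0 there, and no si-A2 point is filled at 48 h.

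At 48 h 5 of 8 members were called lower after si-A1 and 0 of 8 after si-A2, which had 3 arrays. After si-A1, POLA1, PRIM1, PRIM2, POLD3 and POLE2 fell, so all 3 polymerase alpha-primase genes with a matched probe were called. After si-A2 every one of the 8 members had a log2 fold change below 0, from -0.99 for PRIM2 to -0.24 for POLD1, and none passed. Of all probes tested there, 49.4% were below 0.

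PRIM1 read 8.92, 8.98, 8.40 and 8.64 with si-SCRL and 7.64, 7.83, 7.30 and 7.44 with si-A1 at 48 h. It read 8.26, 7.68 and 8.01 with si-A2. Both knockdown groups lay below all controls, and they overlapped each other. It fell by 1.18 on the log2 scale after si-A1 (SE 0.10, adjusted p = 1.7e-04), with -0.69 (SE 0.11, adjusted p = 0.0191) after si-A2. PRIM1 kept the si-A1 call without any 1 array.

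POLA1 read 7.03, 7.29, 7.04 and 7.35 with si-SCRL, 5.35, 5.70, 6.07 and 6.23 with si-A1, and 6.61, 6.42 and 6.64 with si-A2. The 3 groups did not overlap, with si-A2 between the others. POLA1 fell by 1.34 on the log2 scale after si-A1 (SE 0.17, adjusted p = 0.00122), while its value after si-A2 was -0.66 (SE 0.19, adjusted p = 0.108).

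PRIM2 was measured best at 48 h by a probe that the 24 h array lacked. That probe read 6.17, 5.97, 5.80 and 5.95 with si-SCRL, 4.07, 4.58, 4.79 and 4.59 with si-A1, and 4.88, 4.82 and 5.31 with si-A2. Each of the 11 arrays rated it well above background, and the groups lay in the order si-SCRL, si-A2, si-A1. The log2 fold change was -1.46 (SE 0.17, adjusted p = 8.8e-04) after si-A1 and -0.99 (SE 0.19, adjusted p = 0.031) after si-A2. The brightest PRIM2 probe of the 24 h array was also called after si-A1 (-1.88, SE 0.28, adjusted p = 0.00312). The dimmest PRIM2 probe was well above background on 2 of 4 control arrays and no si-A1 array. Its log2 fold change after si-A1 was -1.65 (SE 0.26, adjusted p = 0.0041), a size that is uncertain so near background.

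POLE2 read 6.55, 6.32, 6.05 and 5.80 with si-SCRL, 3.83, 4.41, 5.16 and 4.45 with si-A1, and 5.59, 4.56 and 5.46 with si-A2. Both knockdown groups lay below the controls and overlapped each other. POLE2 fell by 1.72 on the log2 scale after si-A1 (SE 0.33, adjusted p = 0.00876), and its value after si-A2 was -0.96 (SE 0.36, adjusted p = 0.206). POLD3 read 5.69, 5.28, 5.50 and 5.57 with si-SCRL, 4.76, 5.02, 4.63 and 4.41 with si-A1, and 4.90, 4.95 and 5.23 with si-A2. Its knockdown groups also lay below the controls and overlapped each other. POLD3 had a log2 fold change of -0.81 after si-A1 (SE 0.15, adjusted p = 0.00858) and -0.47 after si-A2 (SE 0.17, adjusted p = 0.189).

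The catalytic subunits of the delta and epsilon polymerases were again not called. POLD1 read from 6.72 to 7.43 with si-SCRL, from 6.52 to 6.85 with si-A1 and from 6.29 to 7.0 with si-A2, with overlap. Its log2 fold changes were -0.31 (95% confidence interval -0.69 to 0.07) after si-A1 and -0.24 (-0.65 to 0.17) after si-A2. For POLE the brightest 48 h probe, the dimmer one of 24 h, read 8.30, 8.21, 8.14 and 8.06 with si-SCRL, from 7.53 to 7.88 with si-A1 and from 7.59 to 7.93 with si-A2, without overlap with the controls. Its si-A1 value of -0.47 (SE 0.08) had an adjusted p of 0.00536 but was smaller than the required 0.5, which it reached without si-SCRL replicate 2 (-0.50). Its si-A2 value was -0.39 (SE 0.09, adjusted p = 0.0532). The other POLE probe had -0.32 (adjusted p = 0.0917) and -0.20 (adjusted p = 0.437). POLD2 read from 10.10 to 10.67 with si-SCRL and from 9.50 to 10.06 with si-A1, with a log2 fold change of -0.57 (SE 0.11, adjusted p = 0.0104) that missed the threshold narrowly. With si-A2 it read 9.89, 10.02 and 10.24, which overlapped the controls (-0.38, adjusted p = 0.153).

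After si-A1 at 48 h 5 of 8 members were called lower, against 3.99% of the 45158 probes tested, and after si-A2 0 of 8, against 0.376%. In the limma fit 7 of the 8 members had an unadjusted p below 0.05 after si-A2, the exception being POLD1, as did 8011 of the 45158 probes tested. Over the 8 members the median log2 fold change was -1.0 for si-A1 and -0.57 for si-A2, where all probes had medians of 0.05 and 0.00. On the first and second slide it was -0.93 and -1.03 after si-A1, and -0.57 and -0.56 after si-A2. POLE2 and POLD3 stood near the threshold after si-A1. Leaving out any 1 of the 11 arrays except si-A1 replicate 3 or si-A2 replicate 3 ended the POLE2 call (adjusted p up to 0.0288). Leaving out any 1 except si-SCRL replicate 2, si-A1 replicate 2 or si-A2 replicate 4 ended the POLD3 call (adjusted p up to 0.0279). Same-numbered replicates, which share a slide, deviated together at 48 h, and with the replicate number as a block 3 of the 5 calls stood, with adjusted p of 0.0266 for POLE2 and 0.0254 for POLD3. Under normexp background correction the si-A1 values shrank to -0.77 for POLA1, -0.62 for PRIM2 and -0.73 for POLE2, which stayed called, and to -0.28 for POLD3, which did not. With the dim array kept in, no member was called after si-A1, although the members' median was -0.99.

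The POLA2 probe of the 24 h array is also on the 48 h array, under an Ensembl transcript that RefSeq does not match, and is given here apart from the counts, looked up after its values had been seen. At 48 h it read 8.43, 8.23, 8.61 and 8.80 with si-SCRL, 5.80, 6.05, 6.36 and 6.82 with si-A1, and 7.46, 7.53 and 7.71 with si-A2. The 3 groups did not overlap. The log2 fold change was -2.26 (SE 0.15, adjusted p = 5.1e-05) after si-A1 and -1.02 (SE 0.16, adjusted p = 0.016) after si-A2. The direct comparison of si-A2 with si-A1 passed, at 1.24 (SE 0.16, adjusted p = 0.00416).

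The 2 siRNAs were compared directly to ask whether their effects on these genes differed in size. At 24 h 0 of 9 members were called in either direction, against 0.366% of probes, and the median difference was -0.16. In the limma fit the 1 member with an unadjusted p below 0.05 was POLD3, with a difference of -0.42 (adjusted p = 0.299), where 5096 of the 44849 probes tested had one. At 48 h 0 of 8 members were called, against 1.45% of probes. The POLA2 probe, kept apart from this count, did pass there in the limma fit (1.24, adjusted p = 0.00416). All 8 counted differences at 48 h were above 0, with si-A1 the lower, from 0.07 for POLD1 to 0.76 for POLE2. Of all probes tested, 55.4% had a difference below 0. In the limma fit 8615 of the 45158 probes and 3 members had an unadjusted p below 0.05, the members being POLA1 (0.68, 95% confidence interval 0.26 to 1.1, adjusted p = 0.0733), PRIM1 (0.50, 0.24 to 0.76, adjusted p = 0.0408) and PRIM2 (0.48, 0.05 to 0.91, adjusted p = 0.207). A missed threshold here does not show that the siRNAs act alike.

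The change of each effect from 24 h to 48 h was tested over the 35792 probes shared by both array versions, the POLA2 probe included. Time and array version are the same split, so the test compares effects measured within each version. For si-A1 0 of 9 members were called, against 0.159% of probes, and for si-A2 0 of 9, against 0.0335%. In the limma fit 4745 of the shared probes and 3 members had an unadjusted p below 0.05 for si-A1: POLA1 (-0.66, adjusted p = 0.129), POLA2 (-0.66, adjusted p = 0.209) and POLD2 (-0.40, adjusted p = 0.297), all with a lower value at 48 h. For si-A2 2708 of the shared probes and 4 members did, the members all with a smaller decrease at 48 h: POLE2 (1.84, 95% confidence interval 0.80 to 2.89, adjusted p = 0.262), POLD3 (1.03, 0.54 to 1.51, adjusted p = 0.141), POLA2 (0.82, 0.31 to 1.34, adjusted p = 0.353) and PRIM1 (0.80, 0.38 to 1.22, adjusted p = 0.225). The si-A2 effect on POLA1 was the same size at both times within its error (0.00, -0.43 to 0.44).

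**Figure D3:**
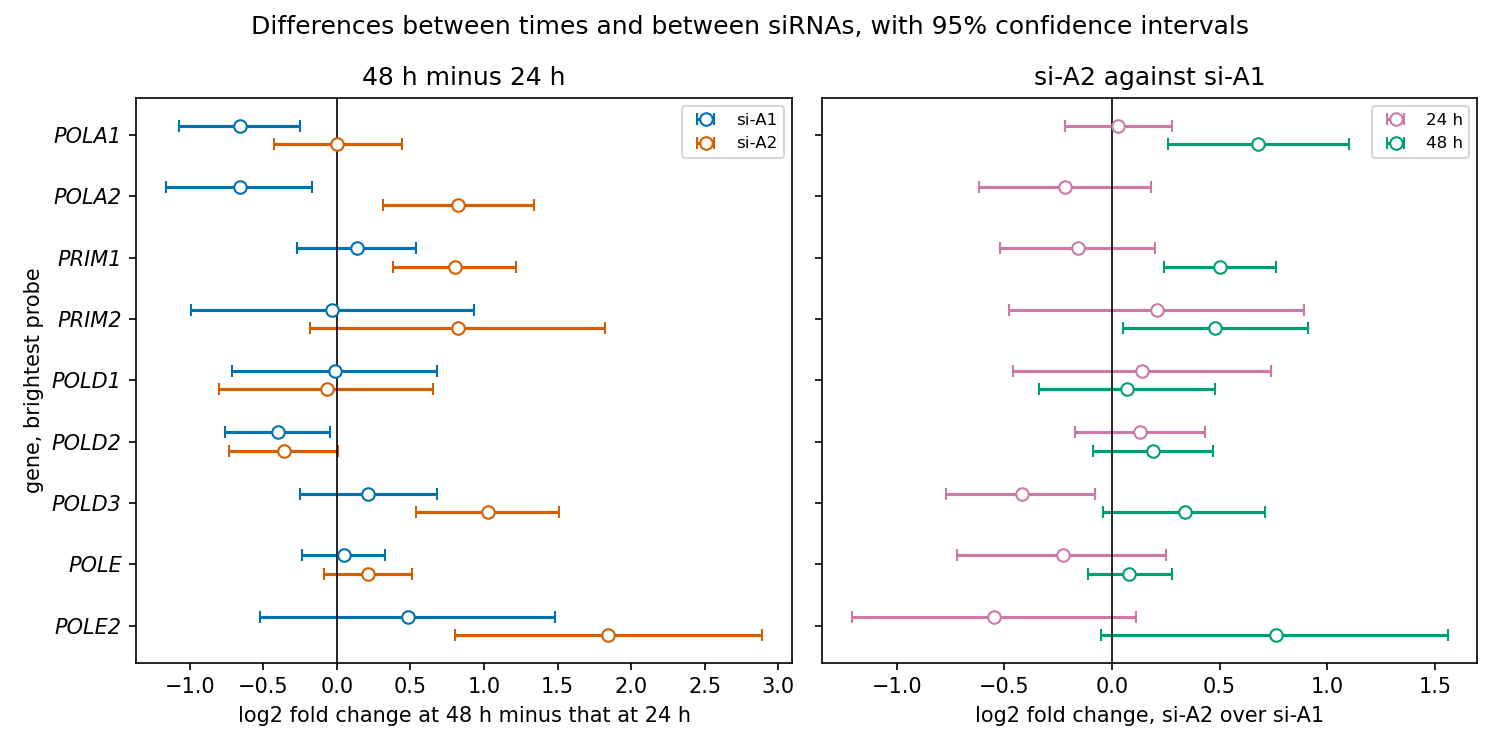
Left: log2 fold change at 48 h minus that at 24 h for each siRNA. Right: log2 fold change of si-A2 over si-A1 at each time. Points are the brightest probe of each gene with 95% confidence intervals, and no point was called. The si-A2 points of POLE2, POLD3, POLA2 and PRIM1 lie above 0 on the left. All 48 h points lie above 0 on the right, where POLA2 is not drawn at 48 h.

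The remaining holoenzyme subunits gave a mixed picture. POLE3, a histone-fold subunit of polymerase epsilon, had log2 fold changes of -0.44 (SE 0.20, adjusted p = 0.38) after si-A1 and -0.97 (SE 0.20, adjusted p = 0.0346) after si-A2 at 24 h. It was called lower after si-A1 at 48 h (-0.86, SE 0.13, adjusted p = 0.0035), with -0.74 (SE 0.14, adjusted p = 0.0326) after si-A2. Its histone-fold partner POLE4 stayed between -0.11 and 0.18 in the 4 comparisons with si-SCRL, and POLD4, the smallest polymerase delta subunit, between 0.01 and 0.15, none of them called.

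Most other fork genes were called lower wherever the members were. The list held 31 genes for the MCM helicase, GINS, the clamp PCNA, its RFC loaders, RPA, FEN1 and further fork factors, of which 30 were tested at each time. After si-A1 19 of 30 were called lower at 24 h and 29 of 30 at 48 h. After si-A2 19 of 30 were called lower at 24 h and 1 of 30 (CDC45) at 48 h. No fork gene was called higher, and the list's medians were -1.48, -1.90, -1.45 and -0.86 in that order. The lowest at 24 h after si-A2 were CLSPN, which relays the replication checkpoint, and MCM10, which helps start forks. None of the si-A2 replicates rated either probe well above background, so the sizes of these decreases are uncertain. The log2 fold changes were -4.76 (SE 0.36, adjusted p = 6.8e-05) for CLSPN and -2.90 (SE 0.36, adjusted p = 0.00156) for MCM10. The highest were RPA3 (-0.40, adjusted p = 0.404) and CHTF18 (-0.33, adjusted p = 0.462).

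Among the DNA polymerases of repair, translesion synthesis and mitochondria, POLQ alone was called. Of 14 such genes tested at 24 h and 13 at 48 h, 1 was called lower in each of the 4 comparisons with si-SCRL, and it was POLQ every time. POLQ, which joins broken DNA ends by short homologies, had log2 fold changes of -1.80 (SE 0.14) and -1.75 (SE 0.14) at 24 h and of -2.76 (SE 0.10) and -1.14 (SE 0.11) at 48 h, after si-A1 and si-A2 in turn. It was called after si-A2 at 48 h (adjusted p = 0.00329), where no member was, and differed between the siRNAs there (1.63, SE 0.11, adjusted p = 5.2e-04). The next lowest at 24 h after si-A2, POLN, was dim and not called (adjusted p = 0.346), and the highest were POLH, a translesion polymerase (0.27, adjusted p = 0.693), and POLG2 of the mitochondrial polymerase (0.10, adjusted p = 0.861). The list's median was -0.11 and -0.02 at 24 h and -0.24 and -0.13 at 48 h.

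The 12 subunits of RNA polymerase II, which transcribes genes, gave a median of -0.01 after si-A1 and 0.10 after si-A2 at 24 h, and of -0.21 and -0.13 at 48 h. POLR2D was called lower after si-A1 at 24 h (-1.25, SE 0.14, adjusted p = 7.9e-04) and at 48 h (-1.15, SE 0.08, adjusted p = 6.6e-05), where POLR2C was called too (-0.94, SE 0.10, adjusted p = 4.5e-04). No subunit was called after si-A2. After si-A2 at 24 h the lowest were POLR2D (-0.31, adjusted p = 0.441) and POLR2B (-0.07, adjusted p = 0.903) and the highest POLR2F (0.23, adjusted p = 0.461) and POLR2L (0.31, adjusted p = 0.358). At 48 h POLR2D and POLR2C were also called in the direct comparison, higher after si-A2 by 0.81 (adjusted p = 0.00234) and 0.75 (adjusted p = 0.00653).

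**Figure D4:**
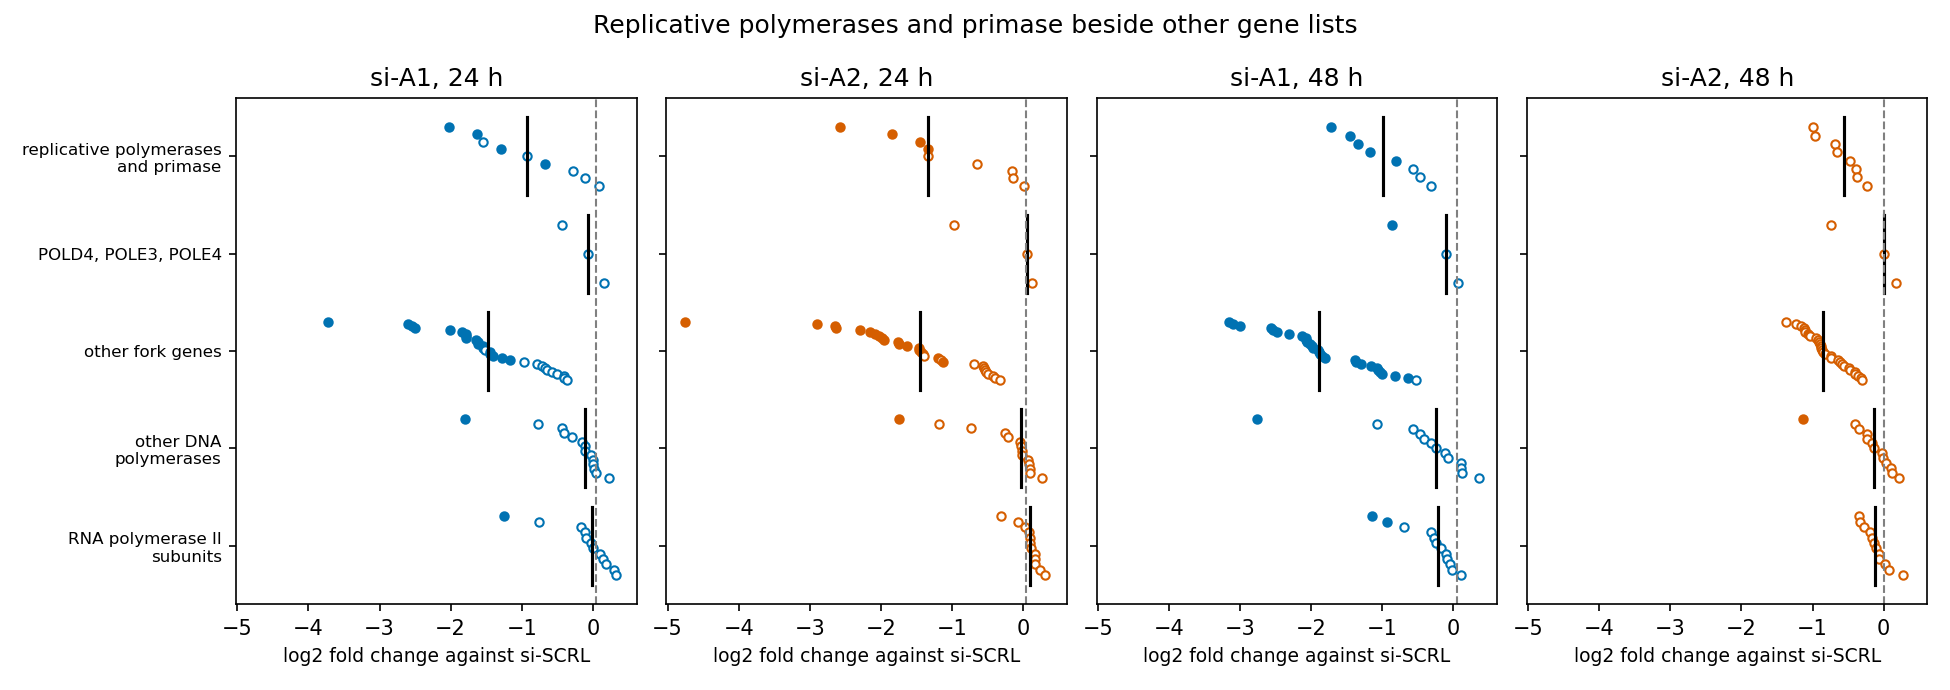
Log2 fold change against si-SCRL (horizontal axis) of every tested gene in 5 lists, 1 panel per comparison; each point is the brightest probe of a gene, filled where called, the black line is the list's median and the dashed line the median of all probes. The replicative polymerases and the other fork genes lie mostly below 0, whereas the other DNA polymerases, apart from POLQ, and the RNA polymerase II subunits centre near 0.

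The members did not all follow 1 profile over the arrays. Each member was set against the mean z-score of the others over the 12 arrays of 24 h, as a description of arrays that share groups and slides. Pearson's r was 0.957 for PRIM1, 0.948 for POLA1, 0.944 for POLE2, 0.942 for POLA2, 0.855 for PRIM2 and 0.804 for POLD3. It was 0.168 for POLD1, 0.047 for POLD2 and -0.169 for POLE. The POLE value is that of its brighter 24 h probe. The other POLE probe, lower than all controls in every knockdown array, was not correlated at 24 h. At 48 h, over 11 arrays, every member was above 0.5, with POLD1 at 0.572, POLD2 at 0.720 and POLE, by its other probe, at 0.772. The 5 genes outside the list whose brightest probe was most like the members' mean profile at 24 h, among 19488 named genes, were the histone genes H3C4 (r = 0.994), H3C6 (0.993), H2AC13 (0.992) and H3C12 (0.992), and HELLS (0.994), a chromatin remodeller. H3C4 had log2 fold changes of -2.32 after si-A1 and -2.47 after si-A2, and HELLS of -1.78 and -1.87.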

How the data were processed

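Expression in LNCaP cells was read from 24 one-colour Agilent arrays, 12 per time point, with 4 for each siRNA. Members, lists and tests were chosen with earlier results of these data known. The authors deposited Feature Extraction 11.5.1.1 output, in which the processed signal is a background-subtracted intensity, not normalized between arrays, with median spot and background intensities. They also deposited a log2 table of quantile-normalized values per time point. The submitters' notes name R 3.4.3 and limma 3.34.8.

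Here, log2 processed intensities were quantile-normalized within a time point over all spots. Control spots and spots the scanner software marked as non-uniform or outliers were left out, as were probes with more than 2 missing arrays. Repeated spots were averaged. Probes had to exceed the mean plus 3 SDs of the 308 negative controls on at least 3 arrays; all 12 and 11 member probes did. Probes were named through RefSeq accessions, for 29033 and 31104 probes. Models were fitted with limma 3.58.1 in R 4.3.3 (statmod 1.5.0 for random blocks) on probes, with an additive slide term and Benjamini-Hochberg adjustment over all probes. A member was represented by its brightest probe. The fit was checked on simulated data. The number of arrays and the signal over background limit the precision. Where no array of a group rated a probe well above background, the log2 fold change rests on values near background, and its size is uncertain. Replicates of equal number, which share a slide, deviated together at 48 h (r between 0.18 and 0.35), hardly more than replicates of other numbers on the same slide (0.10 to 0.29), and were treated as paired in an alternative. Other background corrections used the median spot signal, since no mean signal was at hand. Named genes were all members, POLD4, POLE3 and POLE4, the 2 lowest and 2 highest of each list at 24 h after si-A2, and the 5 most alike genes. CDC45 and POLR2C were named after their values were seen. The alternatives were other scaling, background correction, slide, block, filter and probe settings, and each array left out. Some cell line markers are not reported here.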

Additional observations from a re-analysis of the deposited data

Results flagged for a closer look

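Of 43 groups of 4 arrays tested over the members, 2 held an array far from the other 3, and chance gives about 1 in 20. POLA1 with si-SCRL at 24 h read 6.81 in replicate 2, the lowest of its group, with the gap to the next array taking 0.850 of the group's range. POLA1 with si-A2 at 24 h read 6.25 in replicate 1, with the gap taking 0.857 of a range that was itself narrow. The POLA1 fold change after si-A1 at 24 h was between -0.74 and -0.65 with each array left out in turn.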

How the results depend on the processing

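With 1 slide only, 0 members were called after si-A1 or si-A2 at 24 h and 0 after si-A1 at 48 h. With only the 2 groups compared, the counts were 1 and 2 at 24 h and 3 after si-A1 at 48 h. At 48 h after si-A1 the replicate block gave 3, no filter on dim probes gave 3, and keeping the dim array gave 0. At 48 h after si-A2, normexp background correction gave 1 member (PRIM1) and no background correction gave 2 (PRIM1 and PRIM2). Leaving out 1 array in turn gave 1 to 4 members for si-A1 at 24 h, 4 to 5 for si-A2 at 24 h, 3 to 5 for si-A1 at 48 h and 0 for si-A2 at 48 h. All other settings left these counts within 1.5 times, and the comparisons of si-A2 with si-A1 and of 48 h with 24 h gave 0 members under every setting run. The POLA2 probe, which passed in the comparison of si-A2 with si-A1 at 48 h, was not counted in that comparison. At 24 h equal replicate numbers did not deviate together (r from -0.15 to 0.16), and the replicate block ended 1 call there, POLA1 after si-A1.

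No called fold change turned sign. Among values not called, POLE after si-A1 at 24 h turned to -0.61 on slide 1, -0.49 with only the 2 groups compared and -0.21 with the median over probes, and ranged from -0.50 to 0.23 without 1 array, while POLE after si-A2 at 24 h was 0.21 on slide 2. POLD1 after si-A2 at 24 h was 0.16 on slide 1 and ranged from -0.33 to 0.09 without 1 array, and POLD2 after si-A2 at 24 h ranged from -0.05 to 0.09. With the dim array kept, POLD1 and POLD3 after si-A2 at 48 h were 1.90 and 0.34. The members' median moved with background correction, to -0.44 (normexp) and -0.43 (none) for si-A1 at 24 h, -0.48 and -0.47 for si-A2 at 24 h, and -0.59 and -0.67 for si-A1 at 48 h. The interquartile filter gave -1.29 for si-A1 at 24 h and -1.34 for si-A1 at 48 h, the median over probes -1.0 for si-A2 at 24 h, and the dim array -0.82 for si-A2 at 48 h. With normexp or no background correction, POLA1 after si-A1 and POLD3 after si-A2 at 24 h, and POLD3 after si-A1 at 48 h, were no longer called. The interquartile filter, part of the study's methods, also ended the si-A1 calls of POLA1 at 24 h (adjusted p = 0.132) and POLD3 at 48 h (adjusted p = 0.0124). Keeping spots marked as outliers, a setting chosen after seeing the data because leaving them out became the reported one, changed no count by more than 1.5 times. The causes of these changes were not tested. Signal over background limits PRIM2, POLD3 and POLE2, which were near background in knockdown arrays.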
